A study of Homo sapiens with 24 samples.

Results

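The CDK inhibitor genes are the 7 genes that encode the INK4 and CIP/KIP proteins: CDKN2A, CDKN2B, CDKN2C and CDKN2D of the INK4 family, and CDKN1A, CDKN1B and CDKN1C of the CIP/KIP family. They were chosen by symbol and taken from the gene identifiers of the count files, where they are 7 of 25702, and all 7 were among the 13356 genes that passed the filter on low counts. The samples were IMR90 human diploid lung fibroblasts, every one of which carried ER:HRAS(G12V), a fusion of oncogenic HRAS with an oestrogen receptor domain that 4-hydroxytamoxifen (4OHT) switches on. The growing group (n = 6) carried the MSCV vector and the shHMGA1 group (n = 6) carried MSCV miR30 shHMGA1, a retroviral hairpin against HMGA1, and neither received 4OHT. The RIS group (RAS-induced senescence, n = 6) carried the MSCV vector and the RIS+shHMGA1 group (n = 6) carried the hairpin, and both received 4OHT for 6 days. All cells were at passage 23 to 28. The control for the hairpin was thus the MSCV vector, 1 hairpin was used, and growing cells also carried the uninduced RAS fusion.

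INK4 proteins bind CDK4 and CDK6 and keep them from pairing with D-type cyclins, while CIP/KIP proteins bind cyclin-CDK complexes more broadly, CDK2 complexes among them. Without active CDKs the retinoblastoma protein keeps E2F factors from activating the genes of DNA replication, and the cell stays in G1. In fibroblasts with active oncogenic RAS, p16INK4a (from CDKN2A) and p21 (from CDKN1A) are the inhibitors best known for holding the senescent arrest. CDKN2A also encodes p14ARF from another first exon in another reading frame, and that protein binds MDM2 and not CDKs. The deposited counts are per gene and hold both transcripts as 1 value.

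The libraries held between 8698070 and 23103424 counts. HMGA1, the target of the hairpin, measured 638.9 to 860.9 CPM (read counts scaled to library size) in the vector libraries and 54.4 to 261.8 CPM in the hairpin libraries, with no overlap. Its median was 116.4 CPM in shHMGA1 and 206.8 CPM in RIS+shHMGA1 libraries, and 682.6 CPM in growing and 727.6 CPM in RIS libraries. Of the libraries, 2 stood apart from their groups. The library labelled growing replicate 4 had a score of 77.3 on the leading principal component over log2 CPM (73.9% of the variance), where the other growing libraries lay between -84.3 and -57.2. The library labelled RIS replicate 2 lay at -77.1, where the other RIS libraries lay between 16.9 and 62.1. Over 15 genes of proliferating cells, the summed level was 299.5 CPM in growing replicate 4 against 1317 to 1734 CPM in the other growing libraries, and 1261 CPM in RIS replicate 2 against 266.5 to 365.9 CPM in the other RIS libraries. Both libraries therefore went against their labels. The measures that set them apart follow the difference between the states, so calls and p-values without them come after selection on that difference. Results that rest on these libraries are given with all 24, with the 22 others, or with both, as stated in each place. The comparison of RIS+shHMGA1 with shHMGA1 holds neither of them, although with 24 libraries they enter the estimate of spread. All 8 fibroblast markers were detected, and the epithelial and leukocyte marker lists (5 genes each) summed to at most 1.68 CPM in any library. The endothelial list (5 genes, 1 of them tested) summed to 0.725 to 10.5 CPM and was higher in the RIS+shHMGA1 libraries (5.11 to 8.94 CPM) than in the shHMGA1 libraries (0.789 to 1.74 CPM). Its part in the results below was not tested. In bulk RNA, fewer cells that express a gene and less of its RNA per cell cannot be told apart.

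Promoter windows of RefSeq (GRCh38.p14), 250 bases before to 50 bases after an annotated start, matched 6 of the 7 genes by symbol and gave 9 windows. The 4 windows below are shown because the INK4 genes moved in opposite directions in these data: CDKN2A, with both of its starts, and CDKN2C and CDKN2D. Capitals mark the letters GGGCGG or their reverse complement, the core of the GC box that SP1-family factors bind.
CDKN2A p14ARF-side start, chr9:21995275-21995574, minus strand: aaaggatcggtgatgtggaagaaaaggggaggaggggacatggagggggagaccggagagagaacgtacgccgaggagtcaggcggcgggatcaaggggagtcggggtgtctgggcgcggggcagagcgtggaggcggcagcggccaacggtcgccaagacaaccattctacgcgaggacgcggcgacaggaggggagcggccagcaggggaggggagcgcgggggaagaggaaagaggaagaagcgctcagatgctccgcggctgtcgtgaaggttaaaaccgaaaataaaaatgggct
CDKN2A p16INK4a-side start, chr9:21974808-21975107, minus strand: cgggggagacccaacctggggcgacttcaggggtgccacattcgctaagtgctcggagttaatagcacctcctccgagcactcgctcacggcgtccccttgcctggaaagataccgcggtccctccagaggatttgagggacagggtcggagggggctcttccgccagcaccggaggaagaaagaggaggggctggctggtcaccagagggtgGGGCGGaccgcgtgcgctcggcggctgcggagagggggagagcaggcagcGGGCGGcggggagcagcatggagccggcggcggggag
CDKN2C, chr1:50968456-50968755, plus strand: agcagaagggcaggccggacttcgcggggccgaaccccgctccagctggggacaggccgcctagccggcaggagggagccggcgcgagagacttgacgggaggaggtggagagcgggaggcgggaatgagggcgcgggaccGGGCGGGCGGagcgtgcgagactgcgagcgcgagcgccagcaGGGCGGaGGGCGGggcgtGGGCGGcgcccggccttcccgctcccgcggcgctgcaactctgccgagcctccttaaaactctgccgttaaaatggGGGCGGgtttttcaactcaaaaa
CDKN2D, chr19:10568930-10569229, minus strand: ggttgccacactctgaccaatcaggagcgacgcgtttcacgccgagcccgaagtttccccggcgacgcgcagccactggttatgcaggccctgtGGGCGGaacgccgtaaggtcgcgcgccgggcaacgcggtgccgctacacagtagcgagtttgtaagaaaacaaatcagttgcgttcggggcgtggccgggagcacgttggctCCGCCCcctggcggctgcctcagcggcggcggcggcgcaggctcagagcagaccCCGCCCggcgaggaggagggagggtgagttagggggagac
CDKN2C has 3 windows, with 0, 6 and 1 matches to the GC box and a GC content of 46.3%, 71.3% and 49.3%, and the one shown is that with 6. The GC box occurred 3 times in the CDKN2D window, 2 times in the p16INK4a-side window and 0 times in the p14ARF-side window. In the windows of the other genes it occurred 4 times for CDKN1A, 2 times for CDKN2B and 1 time for CDKN1B. A link between these counts and the direction of change was not tested. Of 35116 RefSeq windows of the same length, 45% held at least 1 match on either strand. The E2F words TTTGGCGC, TTTCCCGC, TTTGCCGC and TTTCGCGC were in 3.31% of all windows, and the letters TTTGAA of the cell cycle homology region were in 15.2%. Neither occurred on either strand in any of the 9 windows of these genes. GC content was 63.3% and 69% in the CDKN2A windows and 68% in the CDKN2D window.

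On GRCh37, the build the counts were made on (hg19), CDKN2A lies at chr9:21967751-21995300 and CDKN2B at chr9:22002902-22009304, both on the minus strand and 7602 bases apart. CDKN2C lies at chr1:51426417-51440306 (plus), CDKN2D at chr19:10677136-10679735 (minus), CDKN1A at chr6:36644237-36655114 (plus), CDKN1B at chr12:12838432-12875303 (plus) and CDKN1C at chr11:2904443-2907005 (minus). The antisense RNA CDKN2B-AS1 shares 593 exonic bases with CDKN2A, 15.3% of the CDKN2A exon sequence, on the other strand. Its own counts were between 0 and 13 in all libraries, against 39 to 306 for CDKN2A. Other noncoding RNAs on the opposite strand share 617 exonic bases with CDKN2C (20.4% of its exon sequence) and 146 with CDKN1A (4.87%). Those RNAs had no counts of their own in the data.

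CDKN1A was by far the most abundant of the 7 in every group. As CPM per kilobase of the canonical transcript, its median was 474.4 in growing libraries (n = 5, without replicate 4), 425.2 in shHMGA1 (n = 6), 827.7 in RIS (n = 5, without replicate 2) and 710 in RIS+shHMGA1 (n = 6). It made up 82.1 to 92.96% of the summed per-length level of the 7 genes in these libraries without 4OHT and 94.5 to 96.9% in those with it. Below CDKN1A the order of median levels per length in growing libraries was CDKN2C (19.1), CDKN2D (9.18), CDKN1B (7.18), CDKN2A (4.22), CDKN2B (2.14) and CDKN1C (0.736), where only the neighbours CDKN2D and CDKN1B overlapped in range. The shHMGA1 libraries had the same order, with CDKN1B and CDKN2A overlapping as well. In RIS libraries CDKN2A came next to CDKN1A (12.1), with no overlap with CDKN2D (5.03). CDKN2D, CDKN2B (4.76) and CDKN1B (4.26) overlapped with their neighbours, and CDKN2C (1.31) and CDKN1C (0.515) came last and also overlapped. The RIS+shHMGA1 libraries had CDKN2A (23.3) second and CDKN2C (1.47) and CDKN1C (0.929) last. Per kilobase of all annotated exons CDKN1A remained first in every group, but the order below it in growing libraries became CDKN2D (8.69), CDKN2C (6.28), CDKN2B (2.06), CDKN1B (1.87), CDKN2A (1.06) and CDKN1C (0.526). On that scale CDKN2D (4.77) and CDKN2B (4.59) came above CDKN2A (3.03) in RIS libraries, while CDKN2A (5.86) stayed second in RIS+shHMGA1 libraries and CDKN2C (0.484) came last there.

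Within the INK4 family the composition turned over. CDKN2C held a median of 53.6% of the summed INK4 level per length in growing libraries (49.2 to 57.2%, n = 5) and 56.8% in shHMGA1 libraries (47.7 to 58.1%, n = 6). It held 5.09% in RIS libraries (2.89 to 7.31%, n = 5) and 4.54% in RIS+shHMGA1 libraries (2.21 to 6.27%, n = 6). CDKN2A went the other way, from 11.8% in growing libraries (11.4 to 18.3%) and 16.0% in shHMGA1 libraries (13.0 to 22.5%) to 55.8% in RIS libraries (43.1 to 58.9%) and 71.7% in RIS+shHMGA1 libraries (60.2 to 74.7%). The summed INK4 level itself was 25.3 to 37.3 CPM per kilobase in growing libraries and 21.6 to 25.8 in RIS libraries, so the ranges overlapped slightly. Both libraries that stood apart went with the opposite state: CDKN2A held 65.5% in growing replicate 4 and 11.2% in RIS replicate 2. These shares depend on the transcript length used. Per kilobase of all annotated exons, the median share of CDKN2A was 5.62% in growing, 26.1% in RIS and 43.0% in RIS+shHMGA1 libraries, that of CDKN2C was 33.0%, 3.09% and 3.65%, and CDKN2D led the family in growing (47.2%) and RIS libraries (35.6%).

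**Figure D1:**
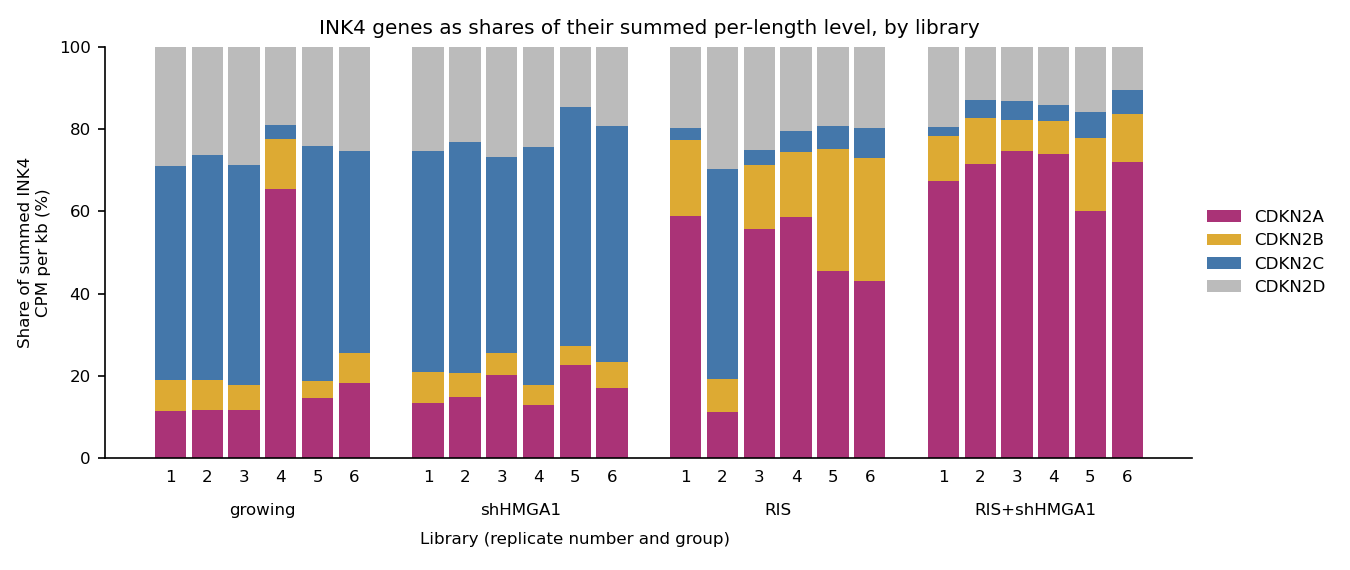
Share of each INK4 gene (%) in the summed INK4 level, in CPM per kilobase of the canonical transcript, for each of the 24 libraries, 1 bar a library. CDKN2C holds about as much as all the others together in libraries without 4OHT and 7.31% or less in libraries with it, apart from growing replicate 4 and RIS replicate 2, which show the pattern of the opposite state.

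The comparison of RIS with growing cells asks how these genes differed after 4OHT switched on oncogenic RAS, in cells with the control vector. No group received 4OHT without the RAS fusion, so effects of 4OHT itself and of RAS cannot be told apart. A gene was called where edgeR's quasi-likelihood test gave a Benjamini-Hochberg adjusted p (FDR over all genes tested) under 0.01 together with a log2 difference beyond 0.58 in either direction, as the study set them. With all 24 libraries, 0 of the 7 genes were called, while 0% of all genes were called higher and 0% lower. At an unadjusted p under 0.05 there were 6 of 7, beside 33% of all genes, and DESeq2 called 1, CDKN2B, beside 4.05% of all genes. Without growing replicate 4 and RIS replicate 2, 3 genes were called higher (CDKN1A, CDKN2A, CDKN2B) and 3 lower (CDKN1B, CDKN2C, CDKN2D), against 19.2% of all genes called higher and 20.5% lower. CDKN1C was not called. The median log2 fold change of the 7 was -0.26, beside -0.01 over all genes.

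The comparison of RIS+shHMGA1 with shHMGA1 asks the same in cells with the hairpin, with 6 libraries a group and neither of the libraries in doubt. The median level of HMGA1 itself was higher in RIS+shHMGA1 than in shHMGA1, as given above. CDKN1A and CDKN2A rose and CDKN1B, CDKN2C and CDKN2D fell, 5 of the 7 genes, where 19.6% of all genes were called higher and 19.5% lower. The other 2, CDKN2B and CDKN1C, were not called. In the fit without the 2 libraries the count was also 5, against 22.5% of all genes higher and 21.9% lower. The 7 genes had a median log2 fold change of 0.01, beside -0.02 over all genes. RIS+shHMGA1 was also compared with growing, as the study did. There CDKN2A was called higher and CDKN2C and CDKN2D lower with all libraries (22% of all genes higher, 23.9% lower), and 3 genes were called higher and 3 lower without the 2 libraries (28.3% and 28.5%). The comparisons share control or treated libraries, so they are not independent of each other.

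CDKN2C, which encodes p18INK4c, fell by far the most of the 7. It measured 0.90 CPM (7 counts) at the lowest, 17.5 at the median and 19.3 at the highest in growing libraries, the lowest being replicate 4, with the others at 12.4 or more. The shHMGA1 libraries lay at 18.8, 21.4 and 26.9 CPM. The RIS libraries lay at 0.738, 1.33 and 16.4 CPM, the highest being replicate 2 (181 counts), with the others at 1.83 CPM or less. The RIS+shHMGA1 libraries lay at 0.635, 1.46 and 2.18 CPM, from 5 to 22 counts. The 4OHT libraries were thus below every library without 4OHT, apart from the pair that stood apart. Its log2 fold change between RIS+shHMGA1 and shHMGA1 was -3.90 ± 0.68 (SE, n = 6 a group, edgeR adjusted p = 0.00024), 15.0 times lower. Between RIS and growing it was -1.95 ± 0.60 with all libraries (edgeR adjusted p = 0.035) and -3.82 ± 0.22 without the 2 (n = 5 a group, edgeR adjusted p = 4.7e-13).

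CDKN2D, which encodes p19INK4d, fell by less than CDKN2C in each comparison of 4OHT libraries with libraries without 4OHT. Its levels were 7.59, 11.4 and 15.4 CPM (lowest, median and highest) in growing libraries, 9.01, 13.5 and 16.2 CPM in shHMGA1, 6.6, 7.35 and 13.6 CPM in RIS, and 5.51, 6.30 and 7.99 CPM in RIS+shHMGA1. Growing replicate 4 was the lowest growing library and RIS replicate 2 the highest RIS library. The hairpin groups did not overlap. The log2 fold change was -0.999 ± 0.206 between RIS+shHMGA1 and shHMGA1 (edgeR adjusted p = 0.00059), and -0.79 ± 0.17 between RIS and growing without the 2 libraries (edgeR adjusted p = 0.00043), or -0.49 ± 0.20 with them (edgeR adjusted p = 0.095).

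CDKN2A, the gene of p16INK4a and p14ARF, rose. In growing libraries it measured 4.00 CPM at the lowest, 4.14 at the median and 17.9 at the highest, the highest being replicate 4 and the next 4.53. The shHMGA1 libraries lay at 5.06, 5.87 and 9.72 CPM, the RIS libraries at 3.54 (replicate 2), 11.3 and 14.8 CPM, and the RIS+shHMGA1 libraries at 15.2, 22.8 and 26.9 CPM. Leaving out the 2 libraries, the 4 groups did not overlap and stood in the order growing, shHMGA1, RIS, RIS+shHMGA1, with RIS ending at 14.8 CPM and RIS+shHMGA1 beginning at 15.2 CPM. The share of all genes with such a separation was not counted, so it cannot be called particular to CDKN2A. Counts behind these values were 39 to 306 a library. The log2 fold change was 1.72 ± 0.35 between RIS+shHMGA1 and shHMGA1 (3.29-fold, n = 6 a group, edgeR adjusted p = 0.00053). Between RIS and growing it was 1.58 ± 0.18 without the 2 libraries (n = 5 a group, edgeR adjusted p = 9e-08) and 0.81 ± 0.35 with them (edgeR adjusted p = 0.11).

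CDKN2B, which encodes p15INK4b, is the neighbour of CDKN2A on chromosome 9. It measured 4.44, 8.96 and 13.1 CPM (lowest, median, highest) in growing libraries, 7.85, 8.83 and 11.3 CPM in shHMGA1, 9.89, 17.0 and 28.9 CPM in RIS, and 10.3, 12.6 and 17.6 CPM in RIS+shHMGA1. The growing maximum was replicate 4 and the RIS minimum replicate 2, and without them the growing libraries reached 10.8 CPM and the RIS libraries began at 12.8 CPM. Its log2 fold change between RIS and growing was 1.09 ± 0.25 with all libraries (edgeR adjusted p = 0.015) and 1.35 ± 0.22 without the 2 (2.54-fold, edgeR adjusted p = 1.7e-05). Between RIS+shHMGA1 and shHMGA1 it was 0.59 ± 0.25 (edgeR adjusted p = 0.041), which did not reach the threshold.

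CDKN1A, which encodes p21, rose from an already high level. Its levels were 491.9, 1121 and 1928 CPM (lowest, median, highest) in growing libraries, 499, 900.2 and 1095 CPM in shHMGA1, 1117, 1732 and 1876 CPM in RIS, and 1358, 1503 and 1743 CPM in RIS+shHMGA1. The highest growing library was replicate 4 and the lowest RIS library replicate 2. Without them, the highest growing value was 1239 CPM and the lowest RIS value 1391 CPM, and the hairpin groups did not overlap either. The log2 fold change was 0.90 ± 0.26 between RIS+shHMGA1 and shHMGA1 (1.86-fold, edgeR adjusted p = 0.006). The difference was larger in the libraries numbered 5 and 6, whose values are given below. That call was lost, with an edgeR adjusted p of 0.011 to 0.017, when shHMGA1 replicate 5 or 6 or RIS+shHMGA1 replicate 1, 3 or 6 was left out. Between RIS and growing the log2 fold change was 0.92 ± 0.23 without the 2 libraries (edgeR adjusted p = 0.0016) and 0.59 ± 0.26 with them (edgeR adjusted p = 0.12).

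CDKN1B, which encodes p27KIP1, fell. It measured 13.9, 17.2 and 18.5 CPM (lowest, median, highest) in growing libraries, 16.1, 17.8 and 20.6 CPM in shHMGA1, 8.94, 11.1 and 17.9 CPM in RIS, and 10.1, 11 and 13.0 CPM in RIS+shHMGA1. Every RIS+shHMGA1 library was below every library without 4OHT, and so was every RIS library but replicate 2. The log2 fold change was -0.67 ± 0.13 between RIS+shHMGA1 and shHMGA1 (edgeR adjusted p = 0.00048), and -0.69 ± 0.11 between RIS and growing without the 2 libraries (edgeR adjusted p = 7.9e-06), or -0.49 ± 0.13 with them (edgeR adjusted p = 0.022).

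CDKN1C, the imprinted gene of p57KIP2, was low in every group, with 8 to 41 counts a library and 0.783 to 2.90 CPM over all 24. All 4 groups overlapped. Its log2 fold change was 0.01 between RIS+shHMGA1 and shHMGA1, with a 95% interval of -0.54 to 0.56. Between RIS and growing it was -0.26 without the 2 libraries, with an interval of -0.86 to 0.34. With all libraries that difference was -0.11, with an interval of -0.68 to 0.46.

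**Figure D2:**
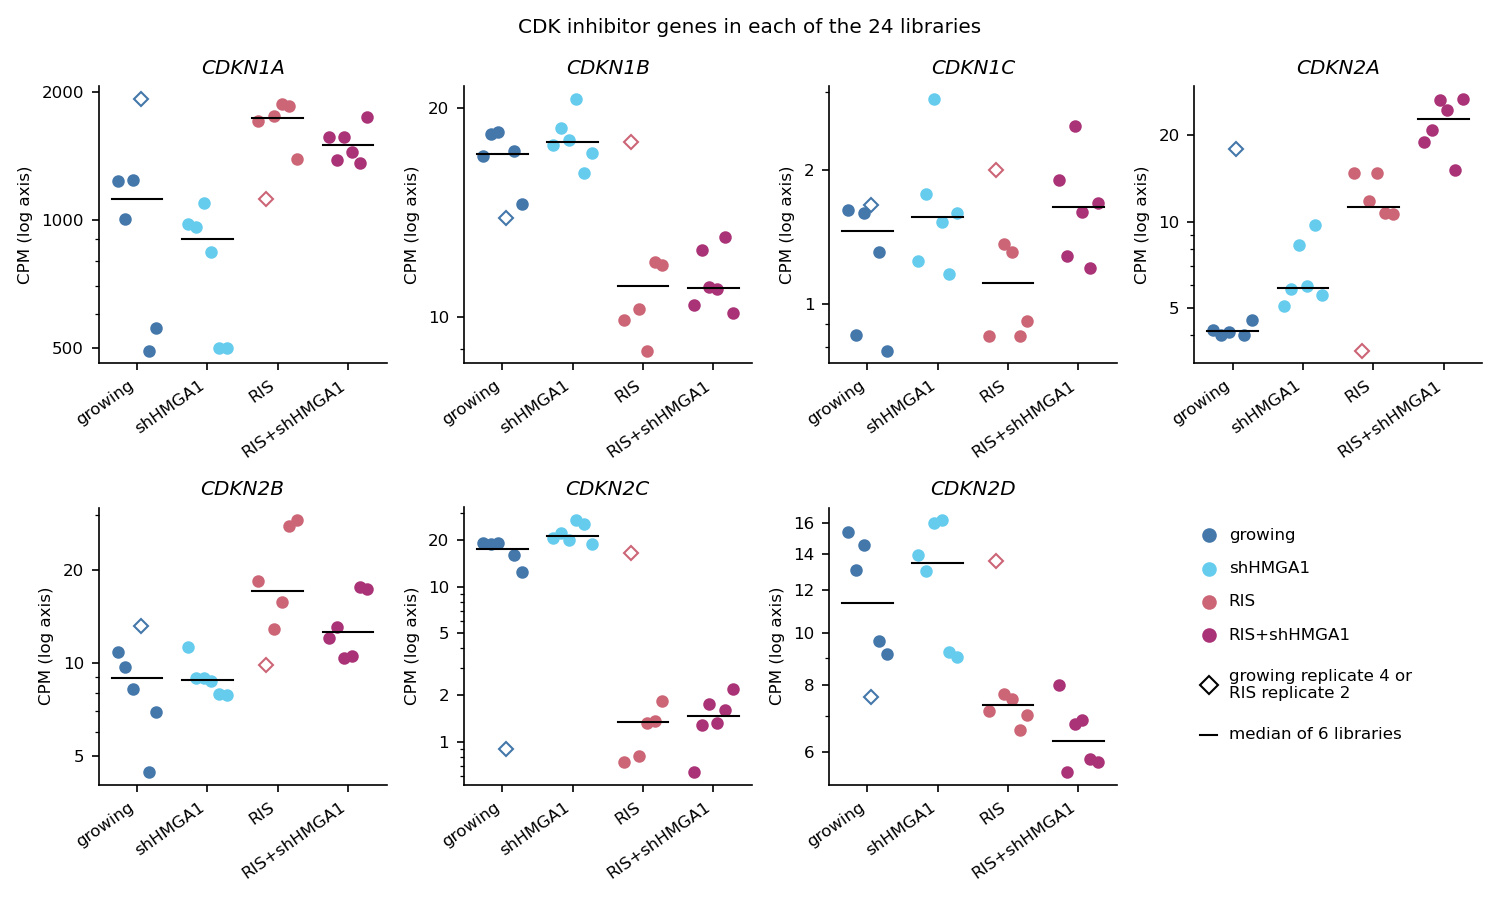
Normalised read count (CPM, log axis) of each CDK inhibitor gene in each library, by group, with the median of 6 libraries as a line and the libraries that stood apart as open diamonds. CDKN2C is at 2.18 CPM or less in the 4OHT libraries other than RIS replicate 2 and at 12.4 CPM or more in the others except growing replicate 4, while CDKN2A runs in the opposite direction.

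The hairpin comparisons ask whether HMGA1 knockdown moved these genes in either state. Between shHMGA1 and growing, 0 of the 7 genes were called with all libraries, by edgeR or DESeq2, beside 0.135% of all genes called higher and 0.135% lower by edgeR, and 0 had an unadjusted p under 0.05, beside 13.2% of all genes. Without growing replicate 4 the highest growing value of CDKN2A (4.53 CPM) was under the lowest shHMGA1 value (5.06 CPM), and in the fit without the 2 libraries its log2 fold change was 0.69 ± 0.18 (edgeR adjusted p = 0.015), over the fold threshold and short of the FDR threshold. With growing replicate 4 it was 0.10 ± 0.35. Without the 2 libraries 0 of the 7 were called, 2 had an unadjusted p under 0.05 (CDKN2A and CDKN2C), beside 38.9% of all genes, and 1.21% of all genes were called higher and 1.39% lower.

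In RIS+shHMGA1 against RIS, 0 of the 7 were called with all libraries by edgeR or DESeq2, 1 had an unadjusted p under 0.05 by edgeR (49.8% of all genes did), and 1.77% of all genes were called higher and 0.786% lower. CDKN2A was higher in every RIS+shHMGA1 library (15.2 CPM or more) than in every RIS library (14.8 CPM or less), also with replicate 2. Its log2 fold change was 1.01 ± 0.34 with all libraries (edgeR adjusted p = 0.03) and 0.83 ± 0.16 without the 2 (1.78-fold, edgeR adjusted p = 0.0014), where it was the 1 gene of the 7 called, beside 10% of all genes called higher and 2.5% lower. CDKN2B had a log2 fold change of -0.61 ± 0.21 in that fit (edgeR adjusted p = 0.026) and CDKN1C one of 0.69 ± 0.29 (edgeR adjusted p = 0.058), and neither was called. These 3 genes had an unadjusted p under 0.05 in that fit, beside 49.5% of all genes. CDKN2C changed sign between fits, from -1.34 ± 0.69 to 0.30 ± 0.27, with neither called.

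The interaction of hairpin and 4OHT tests whether the response to 4OHT differed between hairpin and vector cells. It was called for 0 of the 7 genes in either fit, beside 0% of all genes with all libraries and 0.00745% without the 2, and DESeq2 also called 0. At an unadjusted p under 0.05 there was 1 gene in each, beside 10.3% and 3.82% of all genes: CDKN2C with all libraries, with an interaction of -1.95 ± 0.89 on the log2 scale, and CDKN2B without the 2, with -0.75 ± 0.31 (edgeR adjusted p = 0.99). For CDKN2A the interaction was 0.13 without the 2 libraries, with a 95% interval of -0.37 to 0.64. With all libraries it was 0.91, with an interval of -0.11 to 1.92. For CDKN1A the interaction was -0.026 without the 2 libraries, with an interval of -0.68 to 0.62. With all libraries it was 0.31, with an interval of -0.45 to 1.07. The p-values here measure the spread between samples that the labels call biological replicates.

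**Figure D3:**
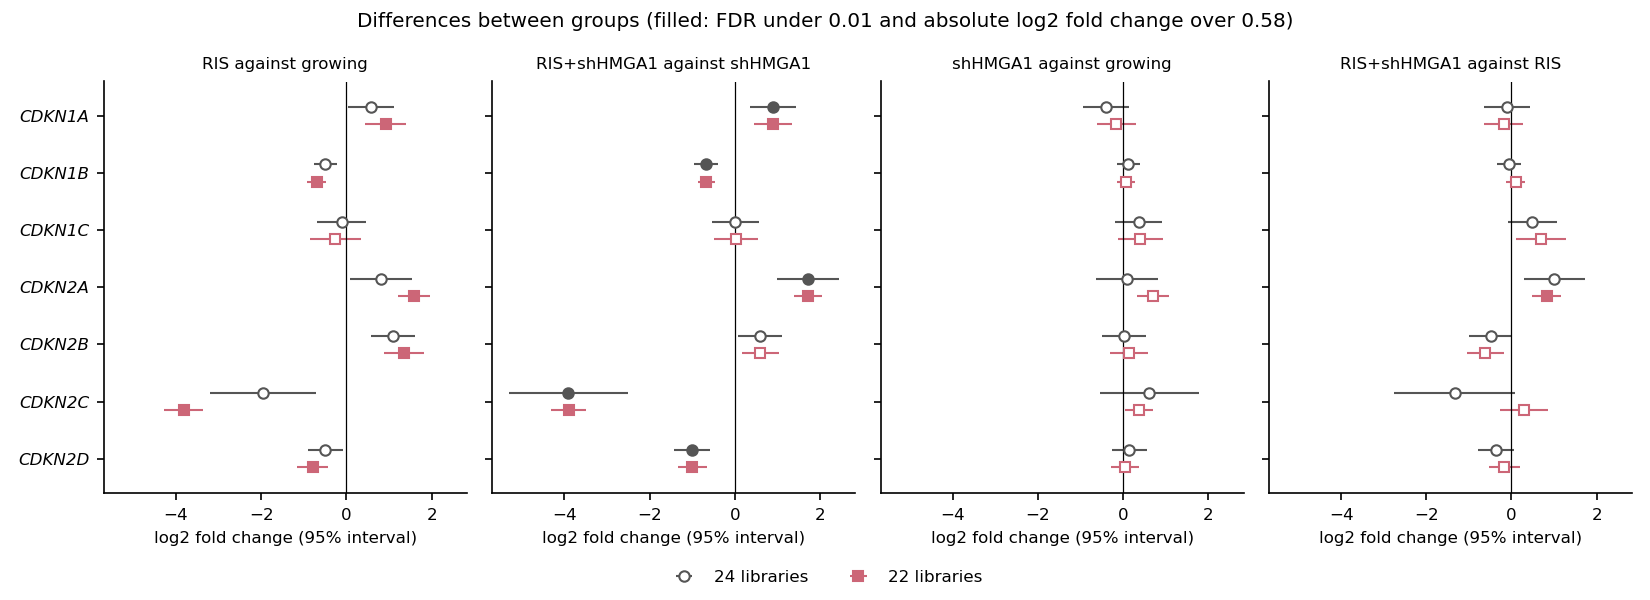
Log2 fold change with its 95% interval for each CDK inhibitor gene in 4 comparisons, with all 24 libraries (circles) and with 22 (squares), filled where called. CDKN2C moves from -1.95 to -3.82 between RIS and growing when the libraries that stood apart are left out, and the values for RIS+shHMGA1 against shHMGA1 stay where they are.

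The libraries numbered 5 and 6 differed from the others for several of these genes. CDKN1A was at 491.9 and 555.2 CPM in growing replicates 5 and 6, against 1004 to 1239 CPM in replicates 1, 2 and 3, and at 499 CPM in both shHMGA1 replicates 5 and 6, against 838.9 to 1095 CPM in replicates 1 to 4. CDKN2D was at 9.01 to 9.66 CPM in the same 4 libraries and at 13.1 CPM or more in growing replicates 1 to 3 and shHMGA1 replicates 1 to 4. CDKN2B was at 27.7 and 28.9 CPM in RIS replicates 5 and 6, against at most 18.3 CPM in the other RIS libraries, and at 17.4 and 17.6 CPM in RIS+shHMGA1 replicates 5 and 6, against at most 13.1 CPM in the others. In growing replicates 5 and 6 it was at 4.44 and 6.96 CPM, against 8.245 to 10.8 CPM in replicates 1, 2 and 3. With 4OHT, CDKN1A was at 1358 and 1743 CPM in RIS+shHMGA1 replicates 5 and 6, against 1384 to 1570 CPM in replicates 1 to 4. In RIS it was at 1856 and 1391 CPM, against 1711 to 1876 CPM in replicates 1, 3 and 4. For both genes the difference with 4OHT was thus larger in numbers 5 and 6. HMGA1 itself was at 58.1 and 54.4 CPM in shHMGA1 replicates 5 and 6, against 98.7 to 143.4 CPM in replicates 1 to 4, and at 59.98 and 75.1 CPM in RIS+shHMGA1 replicates 5 and 6, against 196.7 to 261.8 CPM in the others. No label sets these numbers apart as a batch. A fit with replicate number as a block is among the alternatives given below. The part of numbers 5 and 6 as a set was not tested.

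Genes around the CDK inhibitors moved in the comparison of RIS+shHMGA1 with shHMGA1 as follows, where 19.6% of all genes were called higher and 19.5% lower. Of 11 CDKs and cyclins that the inhibitors act on or with, 7 fell and 1 rose, with a median log2 fold change of -1.69 (-0.02 over all genes). The largest differences were those of CCNA2 (-2.48 ± 0.41), CDK1 (-2.37 ± 0.43), CDK6 (-2.33 ± 0.43), an INK4 target, and CDK2 (-2.29 ± 0.34), the main CIP/KIP target. CDK4, the other INK4 target, was the 1 gene of the list that rose (0.69 ± 0.19, edgeR adjusted p = 0.0039), and it is named because of its direction, after its value was seen. Of 9 genes of the RB and E2F families, 4 fell and 1 rose, with a median of -0.35. E2F2 (-4.74 ± 0.91), RBL1 (-2.77 ± 0.50), E2F1 (-2.24 ± 0.42) and RB1 (-1.10 ± 0.25), the gene of the retinoblastoma protein, were those that fell, and E2F5 was the 1 that rose (0.76 ± 0.21, edgeR adjusted p = 0.0043).

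Of 22 genes known to act on the expression or stability of CDK inhibitors, 20 were tested, 8 fell and 1 rose (19.5% and 19.6% of all genes), with a median log2 fold change of -0.22. KLF4 (-2.67 ± 0.41), which can activate CDKN1A, EZH2 (-1.71 ± 0.29), the polycomb methyltransferase that represses the CDKN2A locus, SMAD3 (-1.63 ± 0.35), which carries TGF-beta signals to CDKN2B, and ID1 (-1.36 ± 0.37), which holds back ETS activation of p16INK4a, were the largest and all fell. MYC, the 1 that rose (1.23 ± 0.26), is named after its value was seen. Of 6 genes with related names, CDKN3 (-2.25 ± 0.53), a phosphatase of CDKs that is no member of either inhibitor family, fell and the others were not called. All 15 genes of proliferating cells fell, with a median of -2.52, led by MKI67 (-4.33 ± 0.87), TOP2A (-3.53 ± 0.61), PLK1 (-3.41 ± 0.63) and BUB1 (-3.05 ± 0.55). Of the 8 fibroblast markers 7 fell (median -1.98). Between RIS and growing without the 2 libraries, 8 of the 11 partners fell and 2 rose (CDK4 and CCNE1), 4 of 9 RB and E2F genes fell, 8 of 20 regulators fell and 1 rose (MYC), and all 15 proliferation genes fell, beside 20.5% of all genes called lower and 19.2% higher. With all libraries no gene of these lists was called in that comparison, where 0% of all genes were called. The summed level of the 15 proliferation genes had helped to set the 2 libraries apart. The fall of these 15 genes without those libraries is therefore not independent of that choice.

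**Figure D4:**
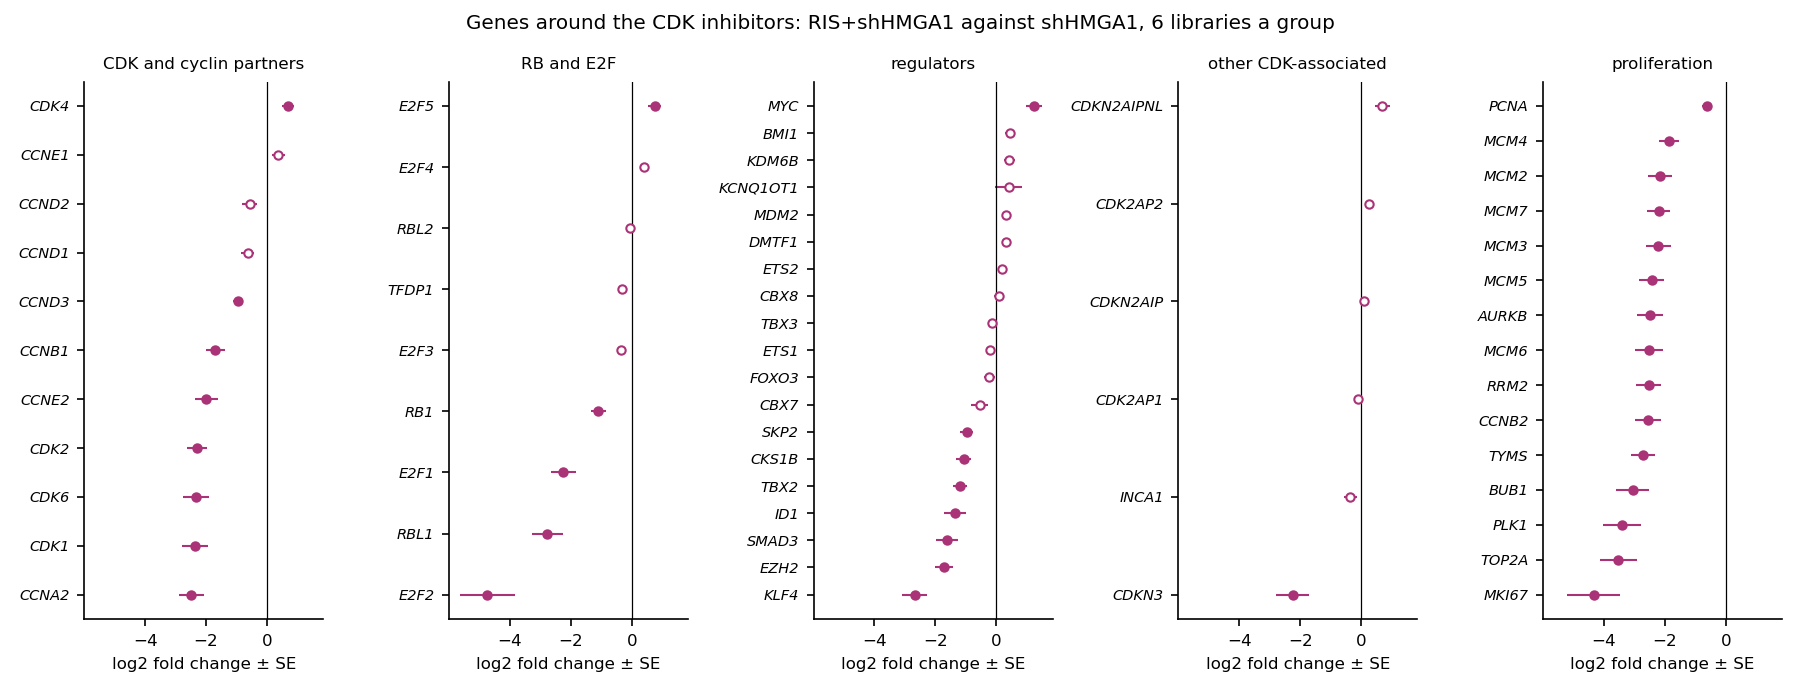
Log2 fold change between RIS+shHMGA1 and shHMGA1 with its SE (6 libraries a group) for the tested genes of 5 lists, 1 regulator left out, filled where called. The proliferation genes all lie below 0, while CDK4 (0.69), E2F5 (0.76) and MYC (1.23) are the filled points above 0.

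Of 7 tested genes next to CDK inhibitors on the chromosome that are not CDK inhibitors themselves, 1 was called between RIS+shHMGA1 and shHMGA1, where 19.6% of all genes were called higher and 19.5% lower. FAF1, 478 bases from CDKN2C, differed by -0.07 on the log2 scale between RIS+shHMGA1 and shHMGA1 (edgeR adjusted p = 0.6), where CDKN2C fell by 3.90 on that scale. KRI1, 429 bases from CDKN2D, had 0.08 (edgeR adjusted p = 0.6). MTAP, next to CDKN2A on the side away from CDKN2B, had 0.42 (edgeR adjusted p = 0.031) and was not called. CPNE5, 53438 bases from CDKN1A, was the one called, with 3.16 (edgeR adjusted p = 0.0015) on 0 to 22 counts a library. CDKN2B-AS1 was too low to be tested.

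The 2 genes whose centred log2 CPM followed each member most closely over the 24 libraries were found among 10930 genes, by the root mean square difference. For CDKN2C they were KIF20A (0.34) and KIF2C (0.38), both mitotic kinesins, where CDKN2C itself varied by 1.94 about its mean. For CDKN2A they were RPP25L (0.26) and URB1-AS1 (0.26), with CDKN2A at 0.95, and for CDKN2B BMP2 (0.31) and STC1 (0.31), with CDKN2B at 0.59. For CDKN1A one of them was LZTS3 (0.24), with CDKN1A at 0.62, and for CDKN1B they were ERLIN1 (0.13) and SGMS1 (0.15), with CDKN1B at 0.36, and for CDKN2D CSRP1 (0.17) and TSPAN4 (0.17), with CDKN2D at 0.49. For CDKN1C they were PAFAH1B3 (0.27) and PPP1R35 (0.28), with CDKN1C at 0.43, so the likeness was weak. These values describe the 24 libraries, which share their groups and the libraries that stood apart.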

How the data were processed

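Reads from mRNA libraries (TruSeq Stranded, HiSeq-2500) were mapped to hg19 with STAR 2.5.0b. Reads with mapping quality under 20 and adapters were removed with cutadapt 1.10.0. The authors deposited raw counts per Entrez gene, made with Rsubread, 1 file a sample. The annotation and strand setting of the counting are not given in the sources used here, so antisense reads cannot be told apart. Of 25702 identifiers, 23696 matched a symbol in a RefSeq table.

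Counts were analysed with edgeR 4.0.16 in R 4.3.3: filterByExpr, TMM, 1 quasi-likelihood fit over the 4 groups, Benjamini-Hochberg adjustment over 13356 genes (13416 in 22 libraries), and calls at FDR under 0.01 with absolute log2 fold change over 0.58. CPM use TMM library sizes. SE is the absolute log2 fold change over the square root of F. Lengths came from GENCODE on GRCh37. Alternatives were DESeq2 1.42.0, RLE, other filters and thresholds, a replicate block and leaving out libraries. No replicate pair agreed within sampling noise (chi-square per gene of 2.81 or more). Same-numbered libraries correlated over 0.1 in 24 of 36 pairs of libraries (-0.59 to 0.83). They were -0.59 to 0.83 between growing and RIS, and 0.07 to 0.48 between growing and shHMGA1. The growing and RIS means that this check subtracts hold the 2 libraries that stood apart, so those pairs cannot decide whether the numbers pair samples. Between shHMGA1 and RIS+shHMGA1, which hold neither library, the correlations were -0.02 to 0.33. Libraries with different numbers were not compared in this way, so these values do not decide it either. The main fit did not pair samples by number, and the replicate block was an alternative.

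The members, the lists and the 2 libraries were chosen with earlier results of these data known. Named genes were chosen among the 7 members, HMGA1, up to 4 genes a list with the largest absolute log2 fold change, the nearest gene on each side and the 2 most alike genes a member. Not every gene that this rule names is reported here.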

Additional observations from a re-analysis of the deposited data

Results flagged for a closer look

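In 28 combinations of gene and group, with 6 libraries each, the gap between the extreme library and its nearest neighbour was compared with the group's whole range. It exceeded Dixon's critical value for 6 libraries in 6, where chance gives about 1 in 20 (1.4 of 28). The genes share the same libraries, so the 28 ratios are not independent and the 2 counts do not make a test. Of these, 4 concern the libraries that stood apart over all genes: CDKN2A in growing replicate 4 (ratio 0.962), and CDKN2C (0.931), CDKN2D (0.843) and CDKN1B (0.656) in RIS replicate 2. Growing replicate 4 had 17.9 CPM of CDKN2A where the next growing library had 4.53 CPM, and RIS replicate 2 had 16.4 CPM of CDKN2C where the next RIS library had 1.83 CPM. The others are CDKN2B in shHMGA1 replicate 1 (0.679), at 11.3 CPM, and CDKN1C in shHMGA1 replicate 3 (0.653), at 2.90 CPM or 33 counts. The causes were not tested.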

How the results depend on the processing

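The number of CDK inhibitor genes called between RIS and growing depended most on the settings: 0 with all libraries, 6 without growing replicate 4 and RIS replicate 2, 6 without them and with a replicate block, 1 by DESeq2, 3 at an FDR under 0.05 with no fold threshold, and 0 to 4 when 1 library was left out (4 without growing replicate 4 or without RIS replicate 2). For RIS+shHMGA1 against growing it was 3, then 6 without the 2 libraries with or without the block, 5 at an FDR under 0.05, and 3 to 5 with 1 library left out (5 without growing replicate 4). For RIS+shHMGA1 against RIS it was 0, then 1 without the 2 libraries with or without the block and at an FDR under 0.05, and 0 to 1 with 1 library left out (1 without growing replicate 4). Between RIS+shHMGA1 and shHMGA1 it was 5, 4 to 5 with 1 library left out, and 2 by glmTreat, a test against the fold threshold, under which CDKN1A, CDKN1B and CDKN2D were not called. The other counts were within 1.5 times. The replicate block alone changed no member's call. No member was called for the hairpin without 4OHT or for the interaction under any alternative run.

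Signs that turned belong to small or uncalled differences. Between RIS+shHMGA1 and RIS, CDKN1B went from -0.06 to 0.10 and CDKN2C from -1.34 to 0.30 on the log2 scale without the 2 libraries (0.073 and 0.31 with the replicate block too), with ranges of -0.13 to 0.10 and -1.55 to 0.30 over single libraries left out. In the interaction, CDKN1A went to -0.026 (-0.061 with the block) and CDKN1B to 0.025 without the 2 libraries, and CDKN1C ranged from -0.037 to 0.33. Between shHMGA1 and growing CDKN2A ranged from -0.039 to 0.69 and CDKN2B from -0.12 to 0.14. For RIS+shHMGA1 against shHMGA1 CDKN1C ranged from -0.15 to 0.22 and was -0.0033 with no filter.

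Over all genes, calls between RIS and growing numbered 0, 5331 without the 2 libraries, 5246 with the block too, 1 with the block alone, 826 by DESeq2 and 1981 at an FDR under 0.05 (4407 at an unadjusted p under 0.05). For RIS+shHMGA1 against RIS they numbered 341, and then 1677, 1938, 1637, 1567 and 4760 under the same alternatives, 189 with no filter and 5 by glmTreat. For shHMGA1 against growing they numbered 36, then 348, 484, 36, 97 and 104, with 23 with no filter, 4 by glmTreat and 5 from those groups alone. Calls fell by glmTreat from 6137 to 1339 and from 5220 to 1550 in the other comparisons, and rose to 9224 and 8461 at an FDR under 0.05. The interaction had 0, and then 1, 2, 0, 4 and 2. With 1 library left out, calls between RIS and growing stayed at 0 except without growing replicate 4 (3420) or RIS replicate 2 (2579), those for RIS+shHMGA1 against RIS ranged from 62 (without RIS replicate 5) to 2555 (without growing replicate 4), and those for shHMGA1 against growing from 10 (without shHMGA1 replicate 6) to 67 (without growing replicate 4). The causes were not tested. Counts were lowest for CDKN1C (8 to 41 a library) and for CDKN2C in libraries with 4OHT other than RIS replicate 2 (5 to 22).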
